A study of Equus caballus with 4 samples.

Results

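The genes of peptide loading on MHC class I molecules and of the immunoproteasome were described in equine satellite cells exposed to gamma-oryzanol (GO), a product of rice bran oil sold as a supplement. Of the 10 genes considered (B2M, TAP1, TAP2, TAPBP, NLRC5, ERAP1, PSMB8, PSMB9, PSMB10 and PSME1), 9 were found on the array by their gene name, among 24998 distinct names. NLRC5 was found on no probe by name and is not analysed here. The 9 genes were carried by 21 probes. These genes were selected on the measured GO over control ratios of the same 4 arrays, so their ratios are given below as a description, with no p-value. How many of them passed the thresholds of the fit over all probes is printed for reference, beside the share of all genes or probes that did, and supports nothing.

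MHC class I molecules show peptides from inside the cell at its surface, where cytotoxic T cells read them. The proteasome cuts proteins into peptides, the TAP transporter carries these into the endoplasmic reticulum, ERAP1 trims them, and tapasin helps to load them onto a heavy chain paired with beta-2-microglobulin. Interferons raise most genes of this pathway in many cell types, and the immunoproteasome is the form of the proteasome in which induced catalytic subunits take the place of the constitutive ones. Mature skeletal muscle fibers normally carry little class I at their surface, whereas the cells here were cultured satellite cells, and only RNA was measured.

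Satellite cells, the muscle stem cells, came from semitendinosus muscle of young colts and were grown in primary culture, and after 48 h in differentiation medium they received 0.125 µM GO in dimethyl sulfoxide (DMSO) for 24 h. Control cells received the same amount of DMSO alone (0.04 µl/ml), and both groups were taken on day 3 of differentiation. Labeled RNA of treated cells (Cy5) was set against that of controls (Cy3) on each of 4 two-color horse arrays, all on 1 slide. The labels call the arrays biological replicates, whereas the methods state that the 1 cell line with the best viability and fusion was carried forward, so the replicates may share a donor and their spread may be partly technical. GO carried the same dye on every array, so a dye effect on a probe and an effect of GO cannot be told apart.

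Each array held 43603 distinct non-control probes, of which 26831 passed the filter on dim probes (the GO channel or the control channel clearly above background throughout the 4 arrays). The share of spots clearly above background ran from 63.5% to 68.9% in Cy3 and from 57.4% to 67.0% in Cy5, and no spot was saturated. All 7 myogenic markers with a probe were well above background in the control cells on every array (MYF5, MYOD1, MYOG, DES, NCAM1, ACTC1 and MYH3), as were 6 of 6 fibroblast markers, and none of the 5 endothelial and 2 adipocyte markers was above background on any array. Of 15 leukocyte markers, 4 were above background on all arrays, among them MS4A1, CD14 and CD68, and CD3E, CD2, CD4, ITGAM, CD48 and LCP1 were above background on none. The summed signal of the leukocyte list was 5465 to 6445 in control cells and 5945 to 6757 in GO cells. Most of this sum was CD14, at 4164 to 4946 in control cells and 4377 to 5231 in GO cells. The sum thus says little of the other markers, such as CD68 at 45.4 to 80.8 in control cells. CD14, CD68 and MS4A1 had mean log2 ratios of 0.11, -0.28 and -0.13 and were not called by limma (adjusted p = 0.251, 0.0597 and 0.185). The fibroblast list had a summed signal of 275868 to 439993 in control cells and 285103 to 396928 in GO cells. Of its 6 genes, 1 was called higher, beside 3.33% of all genes tested. The myogenic list had a summed signal of 228253 to 327562 in control cells and 152436 to 217729 in GO cells. Of its 7 genes, 5 were called lower, beside 5.42% of all genes tested. Nothing is read from these counts about the makeup of the cultures. The part of the myogenic list in the ratios below was not tested, and in such bulk samples fewer cells of a type and less RNA per cell cannot be told apart.

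The probes are 60-base oligonucleotides, shown here because several genes rest on 1 stretch of sequence and others on separate stretches. Positions are those of the array files on the EquCab1 build, with no annotation of exons used here. TAP1 was read by 1 probe on the minus strand (chr20:26856595-26856654), PSMB8 by 1 on the minus strand (chr20:26852202-26852418), PSMB10 by 1 on the minus strand (chr3:18195257-18195443), and the brighter ERAP1 probe lay on the plus strand (chr14:71323974-71324033). The PSMB8 and PSMB10 probes cover 217 and 187 bases of the build, more than their own length, so their sequence is interrupted on the genome. Their sequences are given 5′ to 3′ as in the files, with no base in capitals.
TAP1: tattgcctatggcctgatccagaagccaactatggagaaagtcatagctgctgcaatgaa
PSMB8: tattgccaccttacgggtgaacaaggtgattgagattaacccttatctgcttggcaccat
PSMB10: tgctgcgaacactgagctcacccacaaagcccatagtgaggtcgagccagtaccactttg
ERAP1: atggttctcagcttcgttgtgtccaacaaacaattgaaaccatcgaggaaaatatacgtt

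B2M was read at 2 sites: its 4 probes lay over 1181 bases (chr1:141769463-141770643, minus strand), 2 of them cross a gap and share 40 bases, and the other 2 share 34 bases. The 5 PSMB9 probes (chr20:26867606-26867669, plus strand) and the 5 TAP2 probes (chr20:26838351-26838414, minus strand) each share 56 bases, so within either gene they are repeated readings of 1 site and not separate evidence. A stretch of 30 bases from the middle of each shared part is printed to show what was measured.
B2M: gcttgaagattcctcatttggatttgacta
PSMB9: ctatgatgagtgaatcttcctcacacttcc
TAP2: ttccttgatgaacgtggtactgagtagtat

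The GO over control ratio was below 0 on the log2 scale on all 4 arrays for B2M, TAP1, TAP2, TAPBP, ERAP1, PSMB8 and PSMB9 by their brightest probes, and on 3 of 4 arrays for PSMB10 and PSME1. B2M lay farthest from 0, PSMB9, TAP1, PSMB8 and ERAP1 followed, and TAP2, TAPBP, PSME1 and PSMB10 lay near 0. Neighbors in this order differed by less than or about the larger SD of the pair, apart from B2M and PSMB9. The median of the 9 genes was -0.43, beside 0.00195 over all 9405 genes tested. By their brightest probes, 5 of the 9 genes met both thresholds (limma adjusted p not over 0.05, change not under 1.3-fold), all lower (B2M, TAP1, ERAP1, PSMB8 and PSMB9), where 5.42% of all genes tested did so, and none was higher, where 3.33% of all genes did so. Of the 20 probes tested, 12 met the thresholds, all lower, beside 5.61% of all probes tested. Since the genes were chosen on this contrast, nothing is read from these counts.

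**Figure D1:**
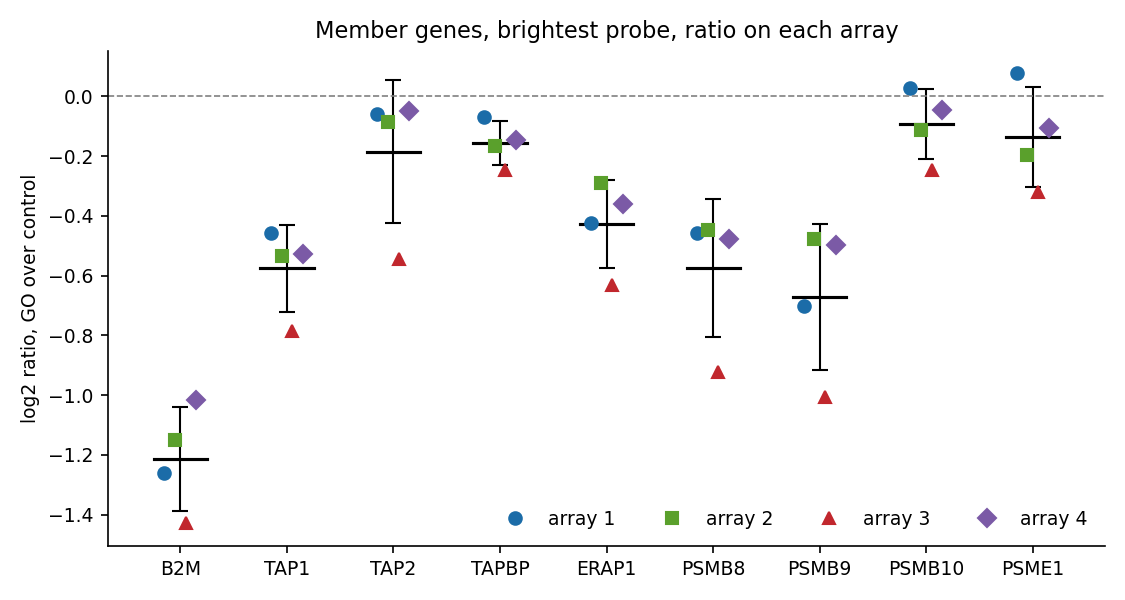
Log2 ratio of GO over control (y axis) for the brightest probe of each of the 9 genes (x axis), with 1 symbol for each of the 4 arrays, the mean as a line and the SD over the 4 arrays as bars. B2M lies between -1.43 and -1.02 on every array, and array 3 (triangles) holds the lowest ratio of each gene.

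B2M, the light chain that every class I molecule needs to reach the cell surface, had processed signals of 54160, 42656, 60537 and 39944 in control cells on arrays 1 to 4, by its brightest probe. The GO signals were 22620, 19203, 22492 and 19740 on the same arrays. The channels did not overlap, since the highest GO signal was under the lowest control signal. Its log2 ratios were -1.26, -1.15, -1.43 and -1.02, with a mean of -1.21 ± 0.17 (SD, n = 4), a 2.32-fold lower signal. The other B2M probes had means of -1.11, -1.09 and -1.05, so the readings at its 2 sites were close, and 16 of 16 single ratios, which share these sites and arrays, were below 0.

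TAP1 and TAP2 form the transporter that moves peptides into the endoplasmic reticulum. The TAP1 signals were 264, 275, 270 and 197 in control cells and 192, 190, 157 and 137 in GO cells. Its log2 ratios were -0.46, -0.53, -0.79 and -0.53, with a mean of -0.58 ± 0.14 (SD, n = 4), a 1.49-fold lower signal. Here too the highest GO signal lay under the lowest control signal, by a narrow margin. TAP2 gave another pattern. Its brightest probe had log2 ratios of -0.06, -0.08, -0.54 and -0.05, so array 3 alone lay away from 0. The mean of -0.18 ± 0.24 (SD, n = 4) was smaller than its spread, the other 4 probes at this site had means from -0.20 to -0.18, and without array 3 the mean of the brightest was -0.06. The TAP2 signals were 4365 to 6755 in control cells and 4115 to 5089 in GO cells, and these ranges overlapped.

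TAPBP encodes tapasin, which holds class I molecules at the transporter until a peptide is bound. Its log2 ratios were -0.07, -0.16, -0.24 and -0.15, with a mean of -0.16 ± 0.07 (SD, n = 4). The signals ran from 135 to 218 in control cells and from 122 to 194 in GO cells. The ratio within an array was thus below 0 each time, but the ranges of the channels overlapped and the change was under the 1.3-fold threshold.

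ERAP1, an aminopeptidase that trims peptides to the length class I molecules hold, was dim. Its brighter probe had signals of 122, 105, 131 and 96.6 in control cells and 91.0, 86.2, 84.4 and 75.3 in GO cells. The channels did not overlap. The log2 ratios were -0.42, -0.29, -0.63 and -0.36, with a mean of -0.43 ± 0.15 (SD, n = 4), a 1.34-fold lower signal. The second ERAP1 probe was above background on 3 arrays in control cells and on 1 in GO cells and was not tested, and its mean log2 ratio was -0.45 ± 0.19 (SD, n = 4). Without array 3 the brighter probe had a mean of -0.36.

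PSMB8, PSMB9 and PSMB10 are the catalytic subunits of the immunoproteasome. The brightest PSMB9 probe had signals of 2240, 1514, 2748 and 1596 in control cells and 1379, 1087, 1367 and 1130 in GO cells, with no overlap between channels. Its log2 ratios were -0.70, -0.48, -1.01 and -0.50, with a mean of -0.67 ± 0.25 (SD, n = 4), a 1.59-fold lower signal. The 5 probes of this site ranged from -0.67 to -0.61, and 20 of 20 single ratios, which share this site and the arrays, were below 0. PSMB8 was dim, at 76.9, 93.3, 113 and 63.8 in control cells and 56.0, 68.5, 59.9 and 45.8 in GO cells. Its log2 ratios were -0.46, -0.45, -0.92 and -0.48, with a mean of -0.58 ± 0.23 (SD, n = 4), a 1.49-fold lower signal. Within each array the GO signal was the lower one, whereas across arrays the ranges of the channels overlapped. PSMB10 did not share these values. Its log2 ratios were 0.03, -0.11, -0.25 and -0.04, with a mean of -0.09 ± 0.12 (SD, n = 4), and its signals were 1290 to 1575 in control cells and 1296 to 1431 in GO cells.

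PSME1 encodes a subunit of the activator that docks on the proteasome and opens it. Its probe lay on an unplaced part of EquCab1 and had log2 ratios of 0.08, -0.20, -0.32 and -0.11, with a mean of -0.14 ± 0.17 (SD, n = 4). The signals were 6987 to 10299 in control cells and 6489 to 8259 in GO cells. These ranges overlapped, and the mean was smaller than the SD.

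**Figure D2:**
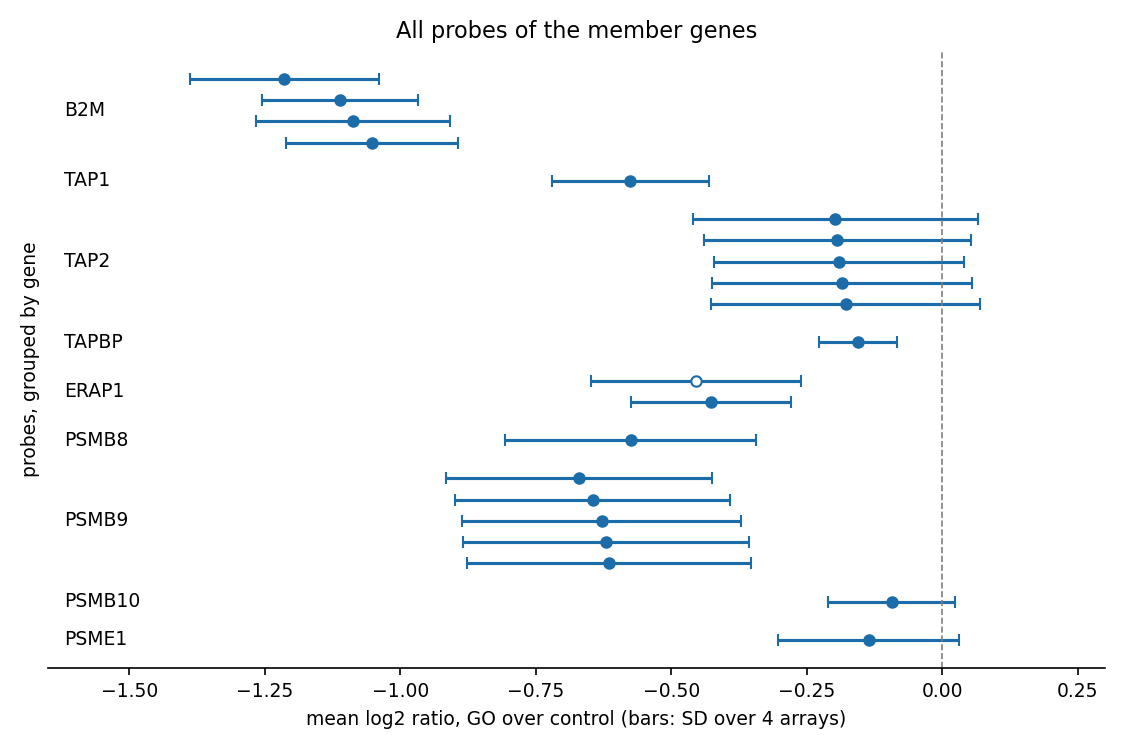
Mean log2 ratio of GO over control (x axis) of all 21 probes, grouped by gene (y axis), with the SD over 4 arrays as bars. The open symbol is the ERAP1 probe that was not tested, and the probes of a gene lie close together, at -1.21 to -1.05 for B2M and -0.67 to -0.61 for PSMB9.

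Array 3 held the lowest ratio of every one of the 9 genes, whereas it held the lowest ratio of 23.3% of all probes tested. The median of the 9 genes was -0.42, -0.29, -0.63 and -0.36 on arrays 1 to 4, beside medians of all probes tested between 0.0004 and 0.0081. The control signal was highest on array 3 in 7 of the 9 genes, where 27.0% of all probes tested were highest there. The control signal is part of the ratio on which the genes were chosen, so this is not a separate observation. The signals of the 9 genes varied more between arrays in control cells than in GO cells in 7 of 9 genes, where 58.1% of all probes tested did so. For PSMB9 the SD of the log2 signal was 0.41 in control cells and 0.18 in GO cells, and for B2M it was 0.28 and 0.12. TAP1 and TAPBP went the other way, at 0.23 and 0.28 in control cells and 0.24 and 0.30 in GO cells. Nothing is read from this count of genes beside the share of all probes. Left without array 3, the median of the 9 genes was -0.36, and the counts past the thresholds were 4 genes (ERAP1 dropped out) and 11 probes. Of all 26831 probes tested, 1603 were then called, 1094 of them lower, beside 2399 and 1505 with all arrays. Nothing is read from these counts, since the genes were chosen on these ratios. The means of the genes near 0 also moved: PSMB10 was at -0.04 and PSME1 at -0.07 without array 3.

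**Figure D3:**
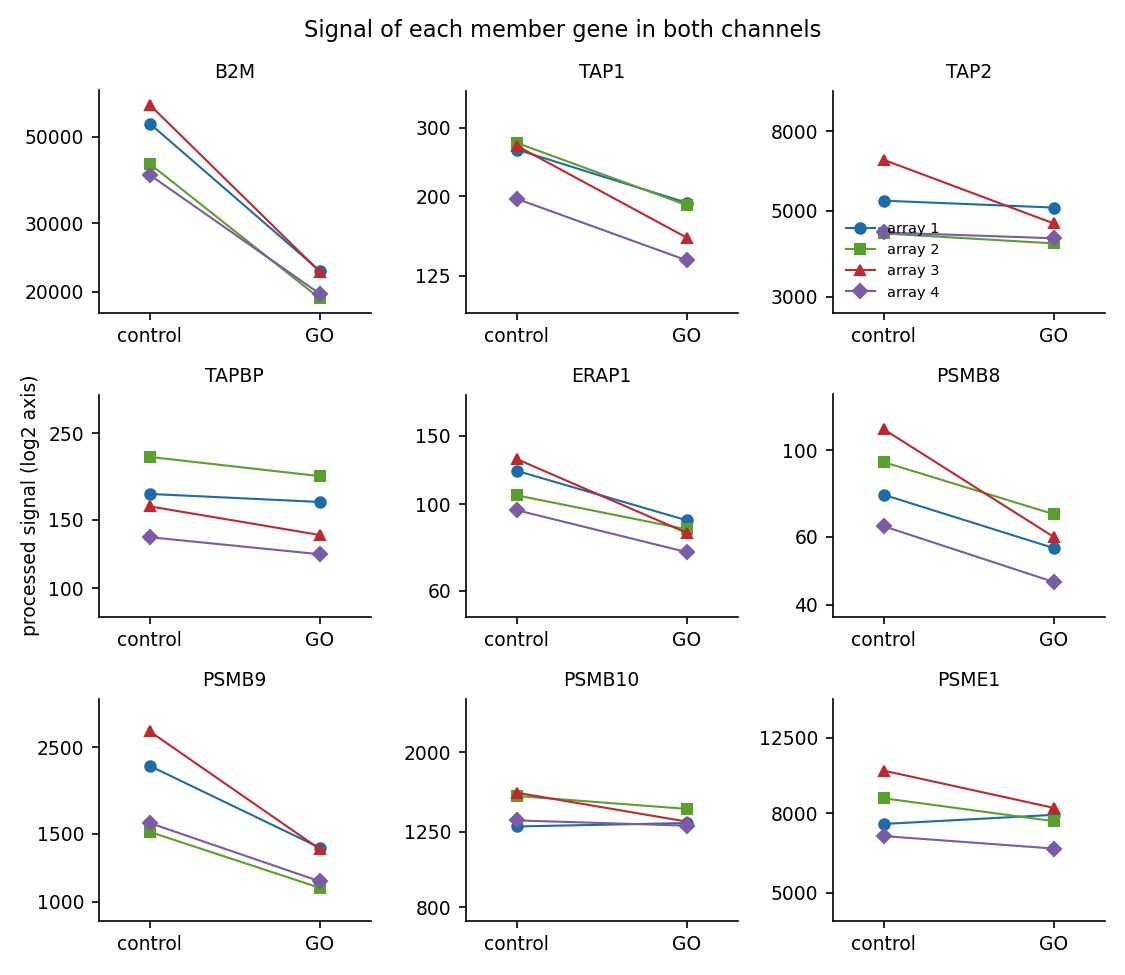
Processed signal of the brightest probe of each gene in control and GO cells (y axis, log2 scale, each panel spanning the same fold range), with 1 line for each array. For B2M the 4 control signals of 39944 to 60537 come down to GO signals of 19203 to 22620, whereas the lines of PSMB10 are nearly level.

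The constitutive subunits were set beside the induced ones that replace them. The ratios of PSMB5, PSMB6 and PSMB7, the counterparts of PSMB8, PSMB9 and PSMB10, had means of -0.02 ± 0.13, -0.11 ± 0.07 and -0.08 ± 0.05 (SD, n = 4), and none was called by limma (adjusted p = 0.887, 0.207 and 0.334). With the arrays centered on their median in place of lowess these means were 0.014, 0.13 and 0.041, so their sign is not settled. The log2 ratio of PSMB8 minus that of PSMB5 was -0.56 ± 0.28 (SD, n = 4), and -0.94 to -0.29 on single arrays. The PSMB9 ratio stood at -0.56 ± 0.21 (SD, n = 4) relative to PSMB6, and ranged from -0.84 to -0.34 on single arrays. The difference between PSMB10 and PSMB7 was -0.01 ± 0.07 (SD, n = 4), with both signs among the arrays. PSME2, the partner of PSME1 in the activator, had log2 ratios of -0.45, -0.23, -0.65 and -0.15. Its mean of -0.37 ± 0.23 (SD, n = 4) had a limma adjusted p of 0.0402 but was just under the fold threshold, and PSME1 lay 0.23 ± 0.24 above it. PSME2 was called lower by limma after normexp and loess (-0.42, adjusted p = 0.0183) and without array 4 (-0.44, adjusted p = 0.0394), whereas median centring gave -0.22 (adjusted p = 0.162), so its call depends on the setting.

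Genes that work beside these were taken from lists of the pathway. Among 18 other proteasome genes with a tested probe, 1 was called lower and 0 higher, beside 5.42% and 3.33% of all genes tested. Their median log2 ratio was -0.14, and nothing is read from the counts of this and the next 2 lists. The called gene was PSME4, an activator of the proteasome in the nucleus, at -0.45, -0.38, -0.47 and -0.28 on arrays 1 to 4. Its mean was -0.39 ± 0.09 (SD, n = 4; limma adjusted p = 0.0101), close to the fold threshold, and it was not called once array 1, 2 or 3 was left out, at -0.38, -0.40 and -0.37.

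The median of 11 other genes of the loading complex and of peptide trimming was -0.13. Among them 1 was called lower and 0 higher, beside 5.42% and 3.33% of all genes tested. This gene was ERAP2, a trimming aminopeptidase related to ERAP1, with log2 ratios of -0.55, -0.25, -0.75 and -0.17 and a mean of -0.43 ± 0.27 (SD, n = 4; limma adjusted p = 0.0374). It was not called without array 1, 2 or 3, with means of -0.39, -0.49 and -0.32, nor by limma after normexp and loess, at -0.25 (adjusted p = 0.0733). PDIA3, the oxidoreductase of the loading complex, is named because its mean was the lowest of this list, which was seen after the values were known. Its ratios were -0.52, -0.52, 0.01 and -2.00, and with a mean of -0.76 ± 0.86 (SD, n = 4) it was not called by limma (adjusted p = 0.122). This rank rested on array 4, without which PDIA3 was at -0.34 and ERAP2 at -0.51.

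The median of 17 tested genes for regulators of class I genes, interferon receptors and their signaling was -0.03. Among them 2 were called lower and 0 higher, beside 5.42% and 3.33% of all genes tested. One of these was IRF9, a DNA-binding factor of the type I interferon response. It had control signals of 547, 453, 622 and 226 and GO signals of 239, 226, 166 and 125. Within each array its GO signal was the lower one, with log2 ratios of -1.20, -1.002, -1.91 and -0.86 and a mean of -1.24 ± 0.47 (SD, n = 4; limma adjusted p = 0.00678). It remained called with any 1 array left out, at -1.37 to -1.02, but not without the filter on dim probes, by the plain one-sample test or with the channels unpaired (adjusted p = 0.0734, 0.103 and 0.107, the first and last by limma). STAT2, a partner of IRF9, stood at -0.07 ± 0.27 (SD, n = 4), and IRF1, an activator of class I genes, at -0.10 ± 0.24 (SD, n = 4), and neither was called (limma adjusted p = 0.654 and 0.501).

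Class I heavy chains, the partners of B2M, were found by name or description on 26 probes under 16 names, of which 24 probes under 14 names were tested. All 24 had ratios below 0 on all 4 arrays, and the median was -0.71, within -0.97 to -0.22. The share of all probes tested with 4 ratios below 0 was not counted, so nothing is read from this count of signs. By limma 17 of the 24 probes, under 13 names, were called lower and 0 higher, beside 5.61% of all probes tested. EQMHCC1, an equine class I heavy chain, is named because its mean was the lowest, which was seen after the values were known. This mean was -0.97 ± 0.33 (SD, n = 4), at control signals of only 320 to 539. Of the 7 probes of EQMCE1, annotated as an MHC class I antigen, 1 was called, and 5 of the others overlap at 1 site with means of -0.35 to -0.29. Heavy chain genes are close copies of each other and several probes share a site, so a probe may read more than 1 gene and these counts are not counts of independent genes. Array 3 held the lowest ratio of 20 of the 24 probes.

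**Figure D4:**
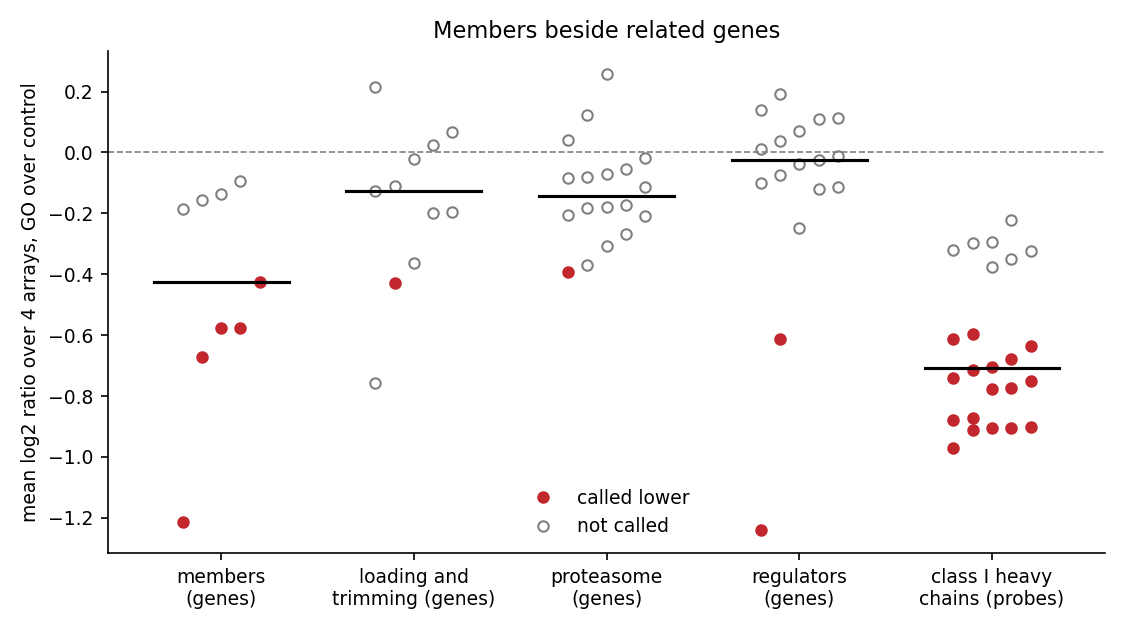
Mean log2 ratio of GO over control over 4 arrays (y axis) for the 9 described genes, 3 lists of related genes and the class I heavy chain probes (x axis), with 1 point for each gene or probe, filled where called lower, and the median of each list as a line. The medians are -0.43, -0.13, -0.14, -0.03 and -0.71 from left to right.

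The 5 other genes nearest to the median profile of the 9 genes over the 4 arrays were CKMT2, SETD7, SKAP2, NCOA1 and RBM24. They were taken from 9396 genes compared by Euclidean distance on the log2 scale. On each array this median was the ratio of ERAP1, a dim gene, so the 5 genes lie nearest to ERAP1. The means of the 9 genes ran from -1.21 to -0.09, and nearness to the other members is not shown by these distances. CKMT2, the creatine kinase of muscle mitochondria, had log2 ratios of -0.40, -0.30, -0.67 and -0.34 and a distance of 0.0556. SETD7, a lysine methyltransferase, followed at 0.0584 with ratios of -0.39, -0.32, -0.61 and -0.39. SKAP2, an adaptor protein, NCOA1, a nuclear receptor coactivator, and RBM24, an RNA-binding protein of muscle, had distances of 0.121, 0.123 and 0.126. Likeness over 4 arrays is a description of these ratios alone.

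The size of the ratios depended on the normalization for some genes. With normexp background correction and loess, the dim genes were nearer to 0: the mean of PSMB8 was -0.31 ± 0.20 and that of ERAP1 -0.24 ± 0.18 (SD, n = 4), and TAP1 was at -0.42 ± 0.22. B2M and PSMB9 were at -1.14 ± 0.17 and -0.62 ± 0.26. With the arrays centered on their median and no lowess, B2M was at -0.81 ± 0.21 (SD, n = 4), while the tested probes above the 90th percentile of signal stood at a median of 0.21 on this scale. All 9 means were below 0 under each of the 3 normalizations.

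**Figure D5:**
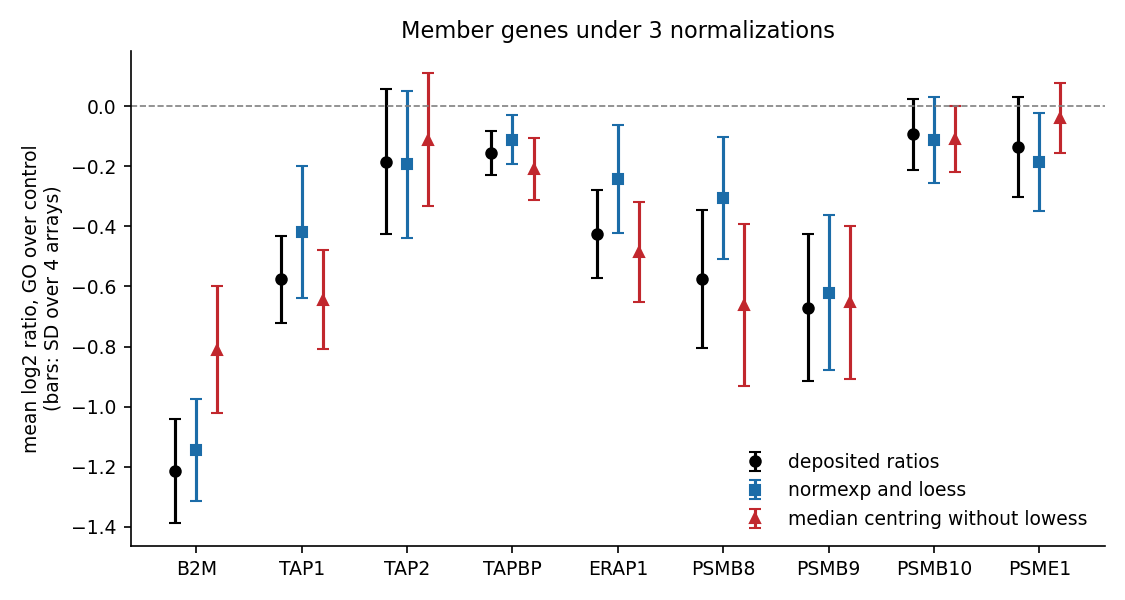
Mean log2 ratio of GO over control (y axis) of the 9 genes (x axis) from the deposited ratios, after normexp and loess, and after median centring without lowess, with the SD over 4 arrays as bars. B2M moves from -1.21 to -0.81 without lowess, and PSMB8 from -0.58 to -0.31 with normexp and loess.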

How the data were processed

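RNA of GO-treated (Cy5) and control (Cy3) cells was hybridized to 4 Agilent horse arrays on 1 slide. The authors scanned them with Feature Extraction (version 10.10.1.1 in the headers). As deposited, intensity values are raw, background-subtracted and processed signals of each channel, the last after linear and lowess dye normalization. The deposited log10 ratios are of processed Cy5 over processed Cy3. The series table held the same ratios for the described probes. Ratios were multiplied to the log2 scale, the 1417 control spots and outlier spots were left out, and spots of 1 probe were averaged. Probes were tested if their GO signals or their control signals cleared background on all 4 arrays. Ratios were tested against 0 with limma (version 3.58.1, R version 4.3.3; lmFit on an intercept, eBayes, two-sided) with Benjamini-Hochberg adjustment over 26831 probes, after a test on simulated data. Calls were made at an adjusted p up to 0.05 with a change of 1.3-fold or more. To the 3 residual degrees of freedom of a probe, eBayes added 3.6 prior ones estimated from all tested probes. The p-values thus set a ratio against only the spread between these samples, partly pooled over probes. The number of arrays limits the precision. All arrays shared 1 slide, so no slide effect could be tested.

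Genes were matched by the name in the files, and 1684 names given as gene numbers were updated from the RefSeq table of the TB-T2T assembly, used for names only. A gene was represented by its brightest tested probe. The genes and all lists were chosen with earlier results of these data known. Named were all probes of the described genes, the called genes of each related list (the results of 1 such gene and 1 marker are not reported here), PSMB5, PSMB6, PSMB7 and PSME2, and the 5 genes nearest in profile. PDIA3, STAT2, IRF1, EQMHCC1 and EQMCE1 were added after their values were seen. The alternatives were other background correction and normalization, other filters, a plain one-sample test, unpaired channels, array weights, leaving out each array, the series table and the mean of a gene's probes. Other tools were data.table (version 1.17.8) and matplotlib (version 3.10.9).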

Additional observations from a re-analysis of the deposited data

Results flagged for a closer look

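Of 35 probes checked, 6 had 1 array far from the other 3, by a gap above Dixon's critical value for 4 values, which chance gives for about 1 in 20 groups of 4. The PSMB8 ratio of -0.92 on array 3 was one, and 4 of the 5 TAP2 probes, which share a site, were others, with ratios of -0.56, -0.53, -0.59 and -0.54 on array 3. The remaining one was PSMB6, at -0.010 on array 4, the ratio nearest to 0 of its 4. So 5 of the 6 lie on array 3 and come from 2 genes.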

How the results depend on the processing

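The 9 genes kept a ratio below 0 under every alternative run. Unpaired, with the channels of an array as separate samples and no replicate block, 370 probes in all were called, 4 probes and 1 gene of the 9, 10 heavy chain probes, and 0 genes of each related list (2 in each at an unadjusted p under 0.05). The plain one-sample test called 147 probes in all and 0 of the described probes and genes, related lists and heavy chain probes. Its unadjusted p was under 0.05 for 13 of the described probes, 6 of the 9 genes and 23 heavy chain probes. The same held for 3, 9 and 1 genes of the loading, proteasome and regulator lists. The share of all probes under this unadjusted threshold was not counted for any alternative, so nothing is read from the unadjusted counts. Without the filter on dim probes, 908 probes were called, 5 probes and 2 genes of the 9, 3 heavy chain probes, and 0 genes of the loading and of the regulator lists (4 and 3 at an unadjusted p under 0.05). After normexp and loess, 1297 probes were called, 3 of the 9 genes (median -0.24), 2 proteasome genes and 1 regulator gene, and the 1 gene called of the loading list was not ERAP2 (-0.25). With arrays weighted by quality 2469 probes in all and 1 regulator gene were called. After median centring without lowess 3306 probes in all and 0 proteasome genes were called (4 of these genes at an unadjusted p under 0.05). PSMB5, PSMB6 and PSMB7 changed sign there, at 0.014, 0.13 and 0.041. With 1 array left out, all probes called numbered 1566 to 2430 beside 2399, the loading list 0 to 2, the proteasome list 0 to 2 and the regulator list 1, and PSMB5 ran from -0.062 to 0.040, its highest without array 4. The causes were not tested. Signal over background limits the second ERAP1 probe, which did not reach the filter in either channel.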
